A study of Fukomys damarensis and Heterocephalus glaber and Cavia porcellus with 28 samples.

Results

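The genes described here are a set of 48 DNA repair genes, listed by symbol with earlier results of these data known. Of these, 47 were found among the 13928 gene rows of each table and 1, Fanca, was not analysed here. RNA was measured in heart and liver of 4 rodents: the naked mole-rat (Heterocephalus glaber) and the Damaraland mole-rat (Fukomys damarensis), which are long-lived African burrowing rodents, with the guinea pig (Cavia porcellus) and the mouse (Mus musculus) as outgroups. There were hearts of 3 mice, 3 guinea pigs, 5 Damaraland and 3 naked mole-rats, and livers of 2, 3, 5 and 4 animals in that order. Each library is from 1 animal, 18 animals gave the 28 libraries, and 10 of them gave both tissues.

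No animal had a stated treatment or altered genotype, and no strain is given in the labels. Naked mole-rats were 13 to 17 months old, Damaraland mole-rats 36 to 48 months, guinea pigs 2.3 months and mice 2 months, so age and species cannot be told apart. All animals were male except 1, which gave Damaraland liver replicate 4. The labels give 1 Damaraland animal different ages for its heart and its liver.

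Cells repair DNA by routes that differ in the damage they read. Nucleotide excision repair cuts out bulky lesions, base excision repair removes single damaged bases, and mismatch repair corrects copying errors. Breaks through both strands are sensed by the Atm and Atr kinases and mended by recombination or by end joining, and the Fanconi anaemia pathway unhooks crosslinks that tie the strands together. Heart muscle cells of adults divide rarely, and hepatocytes divide little in an uninjured liver.

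By these routes the set held 12 genes of nucleotide excision repair, 14 of base excision and single-strand break repair, 3 of mismatch repair, 1 of direct reversal (Mgmt), 9 of break signalling and recombination, 6 of end joining and 2 of crosslink repair. All values are the deposited variance-stabilised values, a log2-like scale on which a gene without reads stands at 5.3645 in heart and 4.2893 in liver. The scale compresses low genes: a 2-fold change from 10 scaled reads moves the value by 0.282 in heart and 0.392 in liver, and from 1000 scaled reads by 0.946 and 0.973. Scaled reads are reads recovered from the values and divided by the library's size factor. They carry no correction for gene length, so levels are compared between species within a gene and not between genes. Gene lengths in each species and the matching of genes across species are not given in the sources used here. Their part in the species differences was not tested. A gene was called different where limma's Benjamini-Hochberg adjusted p, over all genes tested in the tissue, was under 0.05 and the difference was at least 1.

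The libraries held 4089633 to 26985779 reads in heart and 11220505 to 21467939 in liver. Naked mole-rat heart replicate 3 was the shallowest, with 12.91% of genes at 0 reads, and results that rest on it are given without it. The tissue labels matched their markers: Myh6 of heart muscle ranked between 1 and 18 among all genes in heart libraries, and Alb, serum albumin, ranked 1 in each liver library. Hepatocyte markers (4 measured of 5) summed to 10383 to 29309 scaled reads in hearts of naked mole-rats, 1649 to 5056 in those of Damaraland mole-rats, 390 to 1819 in those of guinea pigs and 281 to 1013 in those of mice, against 826504 to 2859934 in the livers. In heart all 4 of those measured markers were called higher in mole-rats in the average contrast. Heart muscle markers (5 of 5) in heart ran from 411280 to 848258 in naked mole-rat, 1088604 to 1526779 in Damaraland, 672264 to 768887 in guinea pig and 911907 to 982555 in mouse. Fibroblast markers (6 of 7) summed to 45972 to 120855 in hearts of guinea pigs and 8609 to 45383 in all other hearts. Leukocyte markers (8 of 11) summed to 3072 to 4733 in guinea pig liver and 1082 to 2424 in the other livers, and 596 to 1642 in hearts. Bile duct markers (4 of 5) summed to 2138 to 2980 in naked mole-rat liver and 119 to 2048 in the others, and endothelial markers (7 of 7) to 2851 to 9740 in liver and 8630 to 20115 in heart. No marker was at 0 in every library of a species, and the part of these markers in the results on repair genes was not tested. In bulk tissue, fewer cells of a type and less RNA per cell cannot be told apart.

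Averaged over species, the mole-rats had more RNA of some repair genes and less of a few, and the crosslink genes Fancd2 and Fanci stood farthest apart in both tissues. The average contrast set the mean of both mole-rats against the mean of guinea pig and mouse. Its p, like that of each contrast here, is measured against the spread of animals within species and not against variation between species. In heart 10 of 47 repair genes were called higher in mole-rats (Brca1, Lig3, Ercc3, Fancd2, Atm, Apex1, Fanci, Nthl1, Trp53bp1 and Palb2) and 1 lower (Parp2). This was 23.4% of the set, and 23.4% of the 10667 genes tested in heart were called in that contrast, 10.8% higher and 12.6% lower. In liver 10 were called higher (Ddb2, Ercc1, Mpg, Xrcc6, Ercc2, Neil1, Fancd2, Fanci, Trp53bp1 and Palb2) and 3 lower (Ercc5, Xpc and Parp2). That was 27.7% of the set against 28.1% of 10887 genes, 15.1% higher and 13.0% lower. The share called was thus at the background in both tissues. Such a call need not hold in each mole-rat. Called in both mole-rats against both outgroups were Fancd2 and Fanci in heart (4.26% of the set against 4.68% of all genes). In liver they were Fancd2, Fanci, Ercc5 and Parp2 (8.51% against 6.29%). Of the others, Atm and Palb2 in heart and Ddb2, Neil1 and Xrcc6 in liver were called in the naked mole-rat alone. Lig3 in heart was so called in Damaraland, Xpc in liver in guinea pig, and Apex1 in heart and Ercc1 and Xrcc6 in liver in mouse. The set's median difference was 0.26 in heart, where that of all genes was -0.01, and 0.11 in liver, where it was 0.02.

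**Figure D1:**
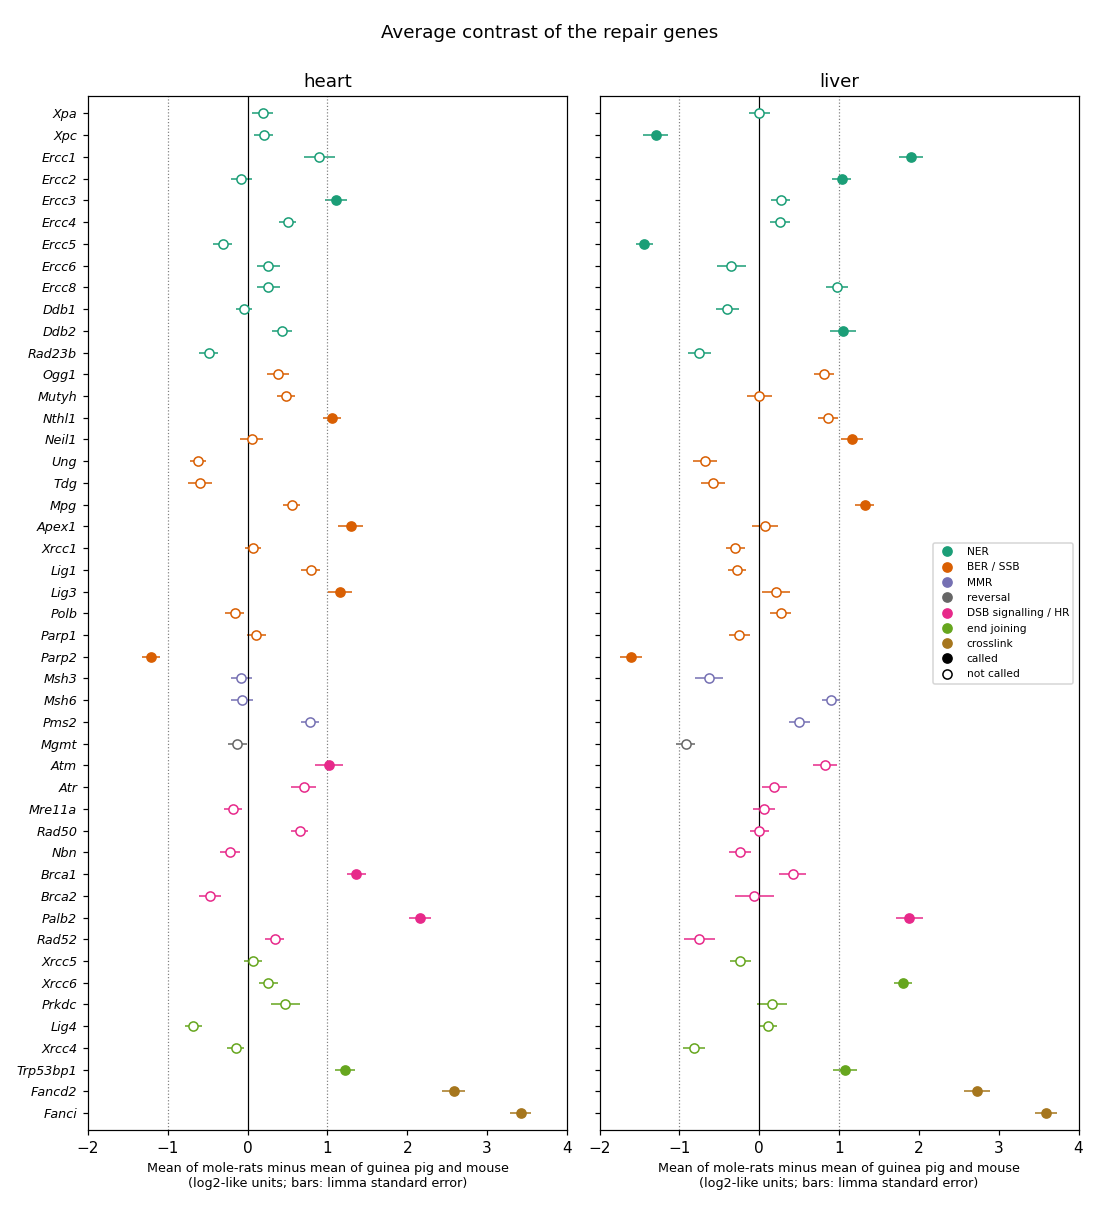
Average contrast (mean of both mole-rats minus mean of guinea pig and mouse, log2-like units, with limma's standard error) for the 47 repair genes in heart (left) and liver (right), coloured by repair route; filled points were called and dotted lines mark differences of 1. Fanci and Fancd2 lie farthest to the right in both panels and Parp2 farthest to the left.

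Among the nucleotide excision repair genes, 1 of 12 was called higher in mole-rat heart and 0 lower, and 3 were called higher and 2 lower in liver. Over all genes 10.8% were called higher and 12.6% lower in heart, and 15.1% and 13.0% in liver. The median average contrast was 0.23 in heart and 0.13 in liver. Damage is first found by Xpc, which binds distorted helix, and by the Ddb1 and Ddb2 pair, which reads ultraviolet damage in chromatin. Xpc was the gene of this route with the strongest pattern of 1 outgroup. Its liver values were 10.77, 11.53 and 11.03 in guinea pig, 8.21, 8.24, 8.36 and 8.65 in naked mole-rat, 9.07, 9.16, 8.46, 8.62 and 9.24 in Damaraland and 8.61 and 8.91 in mouse. Each guinea pig liver stood above all other livers, and the naked mole-rat differed from guinea pig by -2.75 (SE 0.22, adjusted p = 6.76e-09). Mean scaled reads were 2230 in guinea pig liver and 294, 454 and 398 in the others. In heart Xpc was 8.71, 8.93 and 8.93 in naked mole-rat, 7.96, 8.15, 7.98, 8.58 and 8.28 in Damaraland, 8.06, 8.43 and 8.20 in guinea pig and 8.25, 8.50 and 8.51 in mouse, and no species pair was called.

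Ddb2 was higher in naked mole-rat liver than in each of the other livers. Its values were 8.00, 7.83, 7.59 and 7.78 there, 6.42, 6.45, 6.18, 6.48 and 6.44 in Damaraland, 6.10, 6.41 and 5.81 in guinea pig and 6.48 and 5.50 in mouse. The naked mole-rat libraries did not overlap the rest, and the differences were 1.41 (SE 0.19, adjusted p = 3.78e-06) from Damaraland and 1.82 (SE 0.24, adjusted p = 4.56e-06) from mouse. In heart Ddb2 was 7.16, 7.31 and 6.80 in naked mole-rat and between 5.99 and 6.58 in the other 3 species, with differences of 0.74 (SE 0.15) from Damaraland and 0.92 (SE 0.17) from guinea pig that did not reach 1. Its average contrast in liver, 1.05 (SE 0.16, adjusted p = 1.51e-05), fell under the size threshold at 0.81 without mouse liver replicate 2, 0.98 without guinea pig liver replicate 3 and 0.94 with quantile normalisation. Ddb1, its partner, was not called in any species pair of either tissue.

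The lesion is opened by the helicases Ercc2 and Ercc3 of the transcription factor TFIIH. Ercc3 was higher in mole-rat heart, at 9.84, 9.67 and 10.10 in naked mole-rat and 9.48, 9.92, 10.17, 9.84 and 10.34 in Damaraland, against 8.80, 9.02 and 9.31 in guinea pig and 8.53, 8.54 and 8.56 in mouse. All mole-rat hearts stood above all outgroup hearts, with an average contrast of 1.11 (SE 0.14, adjusted p = 2.44e-06). In liver Ercc3 was not called in any species pair (average contrast 0.27 (SE 0.12)). Ercc2 was highest in guinea pig heart, where its mean was 10.10 ± 0.22 (SD, n = 3), and in naked mole-rat liver, where it was 9.89 ± 0.10 (SD, n = 4). Its average contrast in liver, 1.03 (SE 0.12, adjusted p = 6.86e-07), was no longer called without guinea pig liver replicate 2 or mouse liver replicate 2.

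Ercc1 and Ercc5 cut the damaged strand, Ercc1 on the 5′ side as partner of Ercc4 and Ercc5 on the 3′ side. Ercc1 was highest in the Damaraland mole-rat in both tissues. In liver it was 9.02, 8.92, 9.13, 8.96 and 9.07 in Damaraland, 8.41, 8.65, 8.05 and 8.51 in naked mole-rat, 7.84, 7.30 and 7.22 in guinea pig and 6.52 and 5.81 in mouse, without overlap between any 2 species. The average contrast was 1.90 (SE 0.15, adjusted p = 4.94e-09), and mouse liver was called lower than each of the other livers. In heart the Damaraland values were 10.17, 10.05, 9.96, 9.52 and 9.89, the guinea pig values 8.62, 8.62 and 8.33 and the mouse values 8.28, 8.52 and 8.65. Naked mole-rat heart was split, with 8.51, 8.41 and 9.76, the shallow replicate 3 standing apart. Damaraland heart was called higher than the other hearts, but the call against the naked mole-rat, -1.02 (SE 0.25, adjusted p = 0.00191), was lost without Damaraland replicate 1 or 2 or naked replicate 1 or 2. The liver call of mouse alone was likewise lost without mouse liver replicate 2. Ercc1 overlaps an antisense neighbour, and whether reads were counted by strand is not given in the sources used here.

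Ercc5 was lower in mole-rat liver. Its values were 6.95, 7.11, 6.84 and 6.86 in naked mole-rat and 7.36, 7.26, 7.44, 7.61 and 7.38 in Damaraland, against 8.43, 8.84 and 8.49 in guinea pig and 8.59 and 8.69 in mouse. The 2 pairs of species did not overlap, mean scaled reads were 87.1, 134, 349 and 362, and the average contrast was -1.44 (SE 0.11, adjusted p = 5.86e-09). Each of the 4 contrasts between a mole-rat and an outgroup was called, in all 23 settings tried. In heart, mouse was highest at 8.73, 8.53 and 8.72, guinea pig (7.62, 7.76 and 8.13) overlapped both mole-rats, which ran from 7.50 to 8.36, and no pair was called.

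The remaining genes of the route were Xpa, Ercc4, Ercc6, Ercc8, and Rad23b, the partner of Xpc. Ercc6 and Ercc8 start repair at stalled RNA polymerase, and Ercc6 was lower in naked than in Damaraland liver by 1.52 (SE 0.22, adjusted p = 8.62e-06). Xpa, which checks the lesion, was higher there by 1.19 (SE 0.15, adjusted p = 1.8e-06). Average contrasts of these 5 genes ran from -0.49 (Rad23b) to 0.50 (Ercc4) in heart and from -0.75 (Rad23b) to 0.97 (Ercc8) in liver, and none of them was called.

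**Figure D2:**
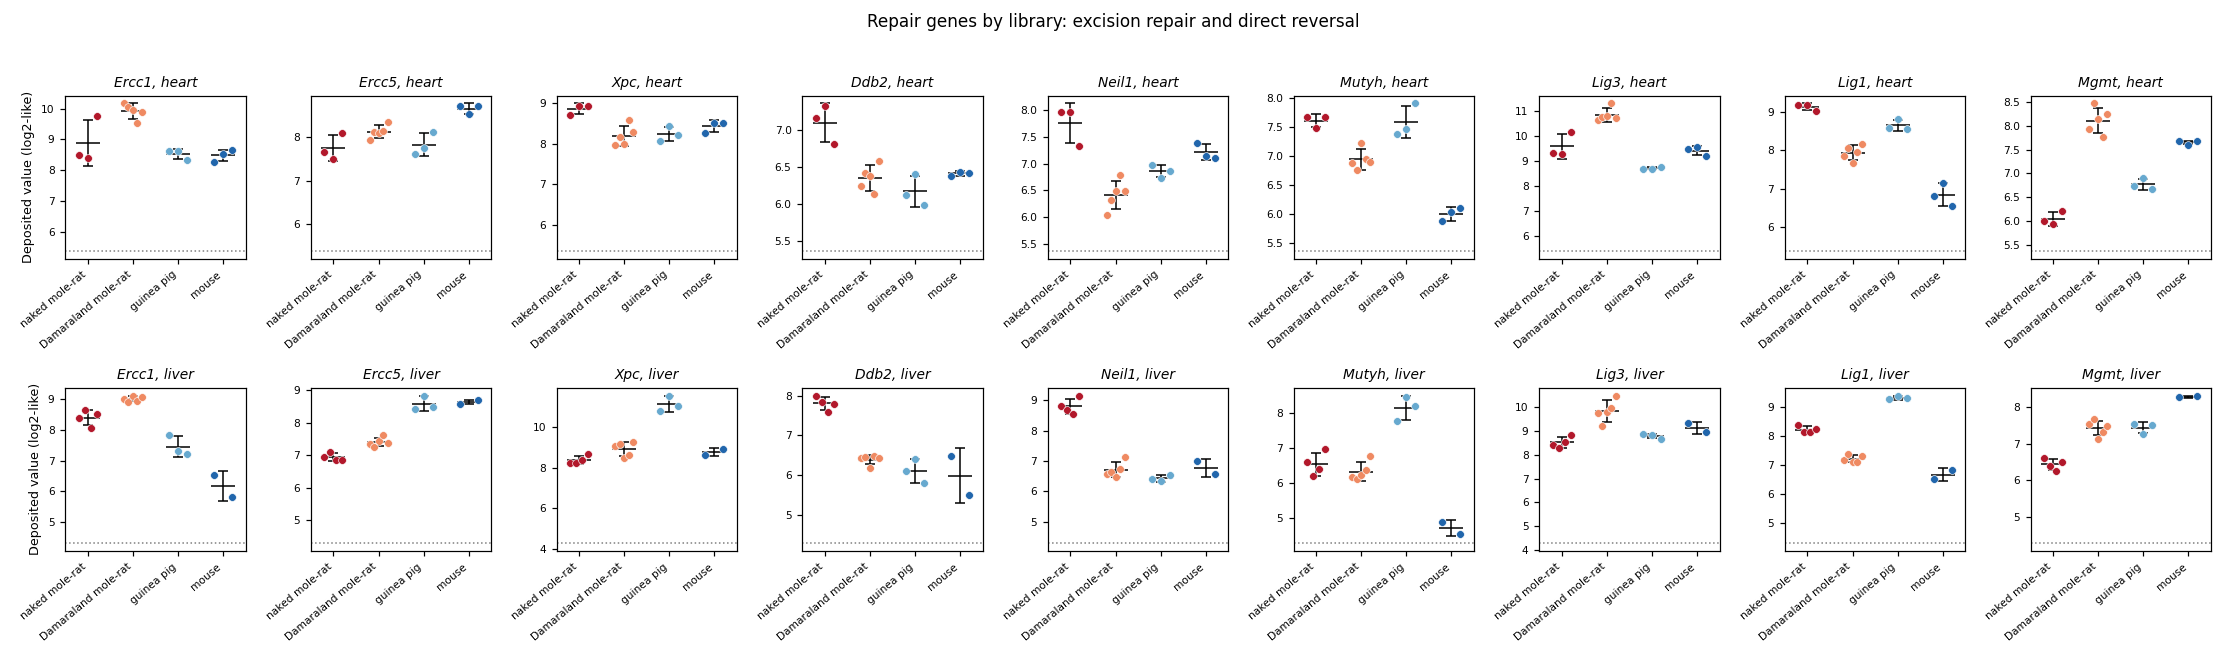
Deposited log2-like value of 9 genes of excision repair and direct reversal in each library (points), with species mean and SD (bars), in heart (top) and liver (bottom); the dotted line is the value of a gene without reads. Guinea pig livers stand highest for Xpc, Mutyh and Lig1, naked mole-rat livers for Ddb2 and Neil1, and the Damaraland mean is the highest for Lig3 and Ercc1 in both tissues, although single libraries overlap for Lig3 in liver and Ercc1 in heart.

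In base excision and single-strand break repair, 3 of 14 genes were called higher in mole-rat heart and 1 lower (10.8% and 12.6% of all genes). Liver had 2 higher and 1 lower (15.1% and 13.0% of all genes). The median average contrasts were 0.25 and 0.04. The route starts with glycosylases, each of which takes out its own kinds of damaged base. Neil1, which removes oxidised pyrimidines, was high in naked mole-rat liver. It stood there at 8.80, 8.68, 8.56 and 9.16, against 6.59, 6.65, 6.48, 6.73 and 7.13 in Damaraland, 6.40, 6.33 and 6.55 in guinea pig and 6.99 and 6.56 in mouse. The 4 naked mole-rat livers were above all others, at 413 mean scaled reads against 71.1, 51.6 and 75.1, and differed from Damaraland by 2.08 (SE 0.17, adjusted p = 7.23e-09). In heart the naked mole-rat values were 7.96, 7.96 and 7.33, the Damaraland values 6.05, 6.32, 6.48, 6.78 and 6.49, the guinea pig values 6.97, 6.74 and 6.86 and the mouse values 7.38, 7.15 and 7.11. Naked and Damaraland heart differed by 1.33 (SE 0.18, adjusted p = 8.16e-06), and naked replicate 3 fell among the mouse hearts. Neil1 differed the same way between the mole-rats in both tissues.

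Mutyh, which removes adenine mispaired with oxidised guanine, was low in mouse and high in guinea pig liver. Liver values were 7.79, 8.48 and 8.21 in guinea pig, 6.60, 6.21, 6.42 and 6.98 in naked mole-rat, 6.19, 6.12, 6.24, 6.39 and 6.77 in Damaraland and 4.90 and 4.57 in mouse. The mole-rats overlapped each other and lay between the outgroups, so the average contrast was 0.00 (SE 0.16), while guinea pig and mouse differed by 3.43 (SE 0.26, adjusted p = 7.81e-09). The mouse livers rested on 3 and 1 reads. By voom on the recovered reads the average contrast in liver was 1.27 in log2 (SE 0.48, adjusted p = 0.0271) and was called. In heart mouse was again lowest, at 5.88, 6.04 and 6.11, against 7.68, 7.49 and 7.67 in naked mole-rat, 6.88, 6.76, 7.23, 6.95 and 6.90 in Damaraland and 7.38, 7.47 and 7.91 in guinea pig. Mouse heart did not overlap the others, and guinea pig exceeded it by 1.58 (SE 0.17, adjusted p = 6.89e-07).

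Mpg removes alkylated purines. Mouse heart stood at 6.99, 6.96 and 6.83, below all other hearts, which ran from 7.83 to 8.43. Mouse was called lower than each other species there, by 1.08 (SE 0.15, adjusted p = 1.06e-05) against Damaraland, but the call against the naked mole-rat was lost without naked heart replicate 3. In liver both mole-rats were above both outgroups, at 8.72, 9.02, 8.73 and 8.97 in naked mole-rat and 8.23, 8.29, 8.08, 8.26 and 8.06 in Damaraland against 7.39, 7.37 and 7.45 in guinea pig and 7.31 and 6.70 in mouse. The average contrast was 1.32 (SE 0.12, adjusted p = 3.27e-08).

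Ogg1, which removes oxidised guanine, was called higher in Damaraland than in guinea pig in both tissues, by 1.35 (SE 0.19) in heart and 1.58 (SE 0.16) in liver. Nthl1, a glycosylase for oxidised pyrimidines, was higher in mole-rat heart by 1.06 (SE 0.11, adjusted p = 1.82e-07), and its liver difference of 0.86 (SE 0.13) did not reach 1. Ung and Tdg, which remove uracil and mispaired thymine, had negative average contrasts in both tissues, from -0.58 to -0.68, none of them called.

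Apex1 cuts the strand where a base was removed. Its heart values were 10.07, 10.24 and 10.00 in naked mole-rat, 9.97, 10.36, 10.59, 10.00 and 10.21 in Damaraland, 9.29, 8.92 and 10.10 in guinea pig and 8.22, 8.39 and 8.34 in mouse. Mouse hearts were below all others and guinea pig replicate 3 fell among the mole-rats, with an average contrast of 1.29 (SE 0.16, adjusted p = 2.72e-06). The call of mouse heart as lower than each other species was lost without guinea pig heart replicate 3. No liver pair was called, and all 14 livers lay between 8.45 and 9.64.

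Ligases Lig1 and Lig3 seal the strand, Lig1 also joining the fragments of DNA replication and Lig3 also serving mitochondria. They ran in opposite directions between the mole-rats in both tissues. Lig1 in heart was 9.17, 9.19 and 9.03 in naked mole-rat, 7.85, 8.07, 7.66, 7.96 and 8.17 in Damaraland, 8.57, 8.82 and 8.55 in guinea pig and 6.80, 7.15 and 6.55 in mouse. The liver values were 8.39, 8.13, 8.16 and 8.25, 7.19, 7.37, 7.11, 7.10 and 7.31, 9.28, 9.41 and 9.31 and 6.52 and 6.83 in the same order. Naked mole-rats exceeded Damaraland by 1.19 (SE 0.16, adjusted p = 7.12e-06) in heart and 1.02 (SE 0.13, adjusted p = 1.73e-06) in liver without overlap, and guinea pig livers were above all other livers. The liver call of naked over Damaraland was lost without Damaraland liver replicate 3 or 4 or naked liver replicate 1, and mouse heart's place as lower than each other species without mouse heart replicate 3.

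Lig3 in heart was 10.65, 10.76, 10.82, 11.32 and 10.73 in Damaraland, 9.34, 9.28 and 10.17 in naked mole-rat, 8.70, 8.67 and 8.76 in guinea pig and 9.49, 9.57 and 9.21 in mouse. Every Damaraland heart was above every other heart, by 2.15 (SE 0.20, adjusted p = 1.07e-07) against guinea pig and 1.43 (SE 0.20, adjusted p = 9.35e-06) against mouse. In liver Damaraland stood at 9.75, 9.18, 9.76, 9.96 and 10.47, naked mole-rat at 8.41, 8.28, 8.54 and 8.80, guinea pig at 8.86, 8.82 and 8.67 and mouse at 9.30 and 8.94. The Damaraland livers were above the naked mole-rat livers, a naked minus Damaraland difference of -1.31 (SE 0.20, adjusted p = 1.8e-05), but replicate 2 lay below a mouse library.

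Parp2 and Parp1 mark single-strand breaks with poly-ADP-ribose. Parp2 (ENSMUSG00000036023) was lower in mole-rats in both tissues. Heart values were 6.20, 6.41 and 6.80 in naked mole-rat, 7.03, 7.03, 7.07, 7.29 and 7.08 in Damaraland, 8.25, 8.14 and 8.19 in guinea pig and 7.94, 7.72 and 7.72 in mouse. Liver values were 6.16, 6.40, 5.78 and 6.15, 6.09, 5.96, 6.32, 6.04 and 6.34, 7.50, 8.16 and 7.89 and 7.78 and 7.52 in that order. No mole-rat library reached an outgroup library in either tissue, and mean scaled reads in liver were 36.9 and 37.8 in the mole-rats against 197 and 164. The average contrast was -1.21 (SE 0.11, adjusted p = 5.61e-08) in heart and -1.61 (SE 0.14, adjusted p = 2.67e-08) in liver. In liver each mole-rat was called below each outgroup. In heart Damaraland against mouse was -0.70 (SE 0.15), under the size threshold on the compressed scale, and -1.14 in log2 by voom on the recovered reads, where it was called. Parp1 had another pattern: Damaraland and guinea pig hearts were both called above mouse (1.22 (SE 0.16) and 1.24 (SE 0.17)), and no liver pair was called.

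The other genes of this route were the scaffold Xrcc1 and the polymerase Polb. Xrcc1 was higher in guinea pig than in mouse liver by 1.41 (SE 0.19, adjusted p = 6.38e-06) and than in Damaraland liver. Polb was higher in naked than in Damaraland liver by 1.15 (SE 0.15, adjusted p = 3.14e-06). Neither was called in heart.

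The mismatch repair genes measured here, Msh3, Msh6 and Pms2, had no call in the average contrast of either tissue, and each set the naked mole-rat or the guinea pig apart in 1 tissue. Msh6 and Msh3 are the alternative partners that read small and larger mismatches, and Pms2 nicks the new strand. Pms2 in heart was 9.15, 9.07 and 9.30 in naked mole-rat, 7.08, 6.92, 7.04, 7.25 and 6.84 in Damaraland, 7.32, 7.63 and 7.48 in guinea pig and 6.88, 7.27 and 7.35 in mouse. Naked mole-rat hearts were above all others by more than 1 unit, 2.15 (SE 0.15, adjusted p = 3.08e-09) over Damaraland, at 499 mean scaled reads against 61.6, 106 and 74.6. In liver the naked mole-rat was again highest at 7.23, 7.50, 7.33 and 7.39, with every other liver at 6.73 or lower, but its differences of 0.86 (SE 0.16), 0.90 (SE 0.18) and 0.96 (SE 0.20) from Damaraland, guinea pig and mouse did not reach 1.

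Msh3 was low in naked mole-rat liver. It was 6.77, 6.84, 6.85 and 7.19 there, 9.18, 8.48, 8.31, 7.95 and 7.97 in Damaraland, 8.16, 8.47 and 8.16 in guinea pig and 8.31 and 8.26 in mouse. Naked mole-rat livers lay below all others, by -1.47 (SE 0.21, adjusted p = 8.04e-06) against Damaraland and -1.36 (SE 0.24, adjusted p = 7.95e-05) against guinea pig. Hearts of all species overlapped, between 7.46 and 8.30, and no heart pair was called.

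Msh6 in heart was 10.16, 10.79 and 10.64 in guinea pig, 9.42, 9.71 and 9.32 in naked mole-rat, 8.74, 9.45, 8.92, 9.35 and 9.40 in Damaraland and 8.18, 8.36 and 8.27 in mouse. Guinea pig hearts were highest and mouse hearts lowest without overlap, a difference of 2.26 (SE 0.21, adjusted p = 1.36e-07). The call of guinea pig over the naked mole-rat, -1.05 (SE 0.21, adjusted p = 0.000449) as naked minus guinea pig, was lost without guinea pig heart replicate 2 or 3 or naked heart replicate 3. In liver Msh6 was 10.19, 9.88, 10.14 and 10.11 in naked mole-rat, 9.56, 9.13, 9.27, 9.32 and 9.35 in Damaraland, 8.97, 9.35 and 9.14 in guinea pig and 8.29 and 8.63 in mouse. The naked mole-rat livers were highest and mouse livers lowest, 1.62 (SE 0.17, adjusted p = 3.73e-07) apart.

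Mgmt, which takes alkyl groups off guanine in a single step, was low in the naked mole-rat. Heart values were 6.01, 5.93 and 6.22 in naked mole-rat, 7.93, 8.47, 8.15, 7.77 and 8.25 in Damaraland, 6.74, 6.90 and 6.67 in guinea pig and 7.68, 7.60 and 7.68 in mouse. Liver values were 6.60, 6.40, 6.26 and 6.51, 7.53, 7.66, 7.14, 7.33 and 7.48, 7.54, 7.27 and 7.51 and 8.26 and 8.29. In both tissues every naked mole-rat library was below every other library, at 9.92 mean scaled reads in heart and 52.4 in liver. The naked mole-rat differed from Damaraland by -2.06 (SE 0.16, adjusted p = 9.76e-09) in heart and -0.99 (SE 0.14, adjusted p = 8.38e-06) in liver, where the size threshold was just missed, and from mouse by -1.60 (SE 0.18, adjusted p = 6.24e-07) and -1.84 (SE 0.18, adjusted p = 1.35e-07). Against guinea pig the heart difference was -0.72 (SE 0.18) on the compressed scale and -2.24 in log2 by voom, where it was called. The order of the outgroups and Damaraland differed between tissues.

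**Figure D3:**
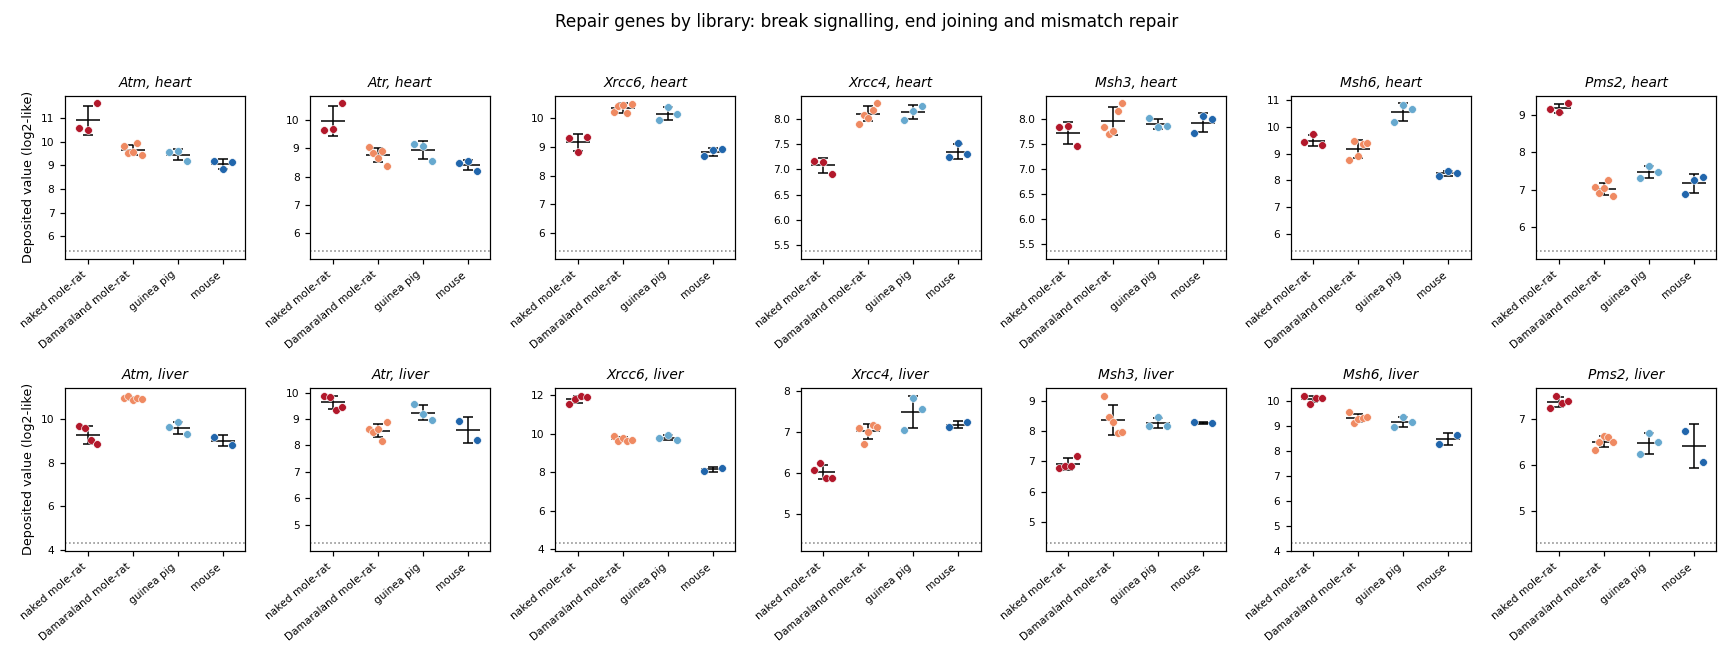
Deposited log2-like value of 7 genes of break signalling, end joining and mismatch repair in each library (points), with species mean and SD (bars), in heart (top) and liver (bottom); the dotted line is the value of a gene without reads. Atm is highest in naked mole-rat heart but in Damaraland liver, and Xrcc6 is below Damaraland in naked mole-rat heart and above it in liver.

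For break signalling and recombination, 3 of 9 genes were called higher in mole-rat heart and 0 lower (10.8% and 12.6% of all genes). In liver 1 was called higher and 0 lower (15.1% and 13.0% of all genes). The median average contrast was 0.65 in heart and 0.06 in liver. Atm (ENSMUSG00000034218), the kinase that answers double-strand breaks, differed between the mole-rats in opposite directions in the 2 tissues. Its heart values were 10.59, 10.49 and 11.62 in naked mole-rat, 9.81, 9.52, 9.56, 9.95 and 9.43 in Damaraland, 9.56, 9.62 and 9.19 in guinea pig and 9.20, 8.83 and 9.15 in mouse. Its liver values were 9.67, 9.61, 9.04 and 8.85, 10.96, 11.09, 10.88, 10.98 and 10.91, 9.63, 9.88 and 9.32 and 9.20 and 8.82. Naked mole-rat hearts stood above all other hearts and Damaraland livers above all other livers, with naked minus Damaraland at 1.25 (SE 0.22, adjusted p = 0.000141) in heart and -1.67 (SE 0.18, adjusted p = 2.21e-07) in liver. Mean scaled reads were 1962 in naked mole-rat hearts against 732 in Damaraland hearts, while livers averaged 607 and 1961. The liver difference was called in each of 23 settings. The heart call of naked over Damaraland was lost without naked replicate 3. The average contrast of Atm in heart, 1.02 (SE 0.17, adjusted p = 4.99e-05), lay at the size threshold and its call was lost without any 1 of 5 hearts: it was 0.84 without naked replicate 3, 0.95 without guinea pig replicate 3, 0.96 without mouse replicate 2, 0.98 without Damaraland replicate 4 and just under 1.0 without Damaraland replicate 1. The change between tissues was not tested, since the tables were normalised separately.

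Atr, the kinase that answers stalled replication forks, was higher in naked than in Damaraland mole-rat in both tissues. In heart it was 9.63, 9.68 and 10.58 in naked mole-rat, 9.04, 8.84, 8.66, 8.92 and 8.39 in Damaraland, 9.14, 9.08 and 8.55 in guinea pig and 8.48, 8.54 and 8.20 in mouse. Its liver values were 9.87, 9.83, 9.34 and 9.47, 8.62, 8.51, 8.61, 8.17 and 8.88, 9.55, 9.18 and 8.98 and 8.92 and 8.22. The mole-rats did not overlap in either tissue, and differed by 1.19 (SE 0.22, adjusted p = 0.000182) in heart and 1.07 (SE 0.19, adjusted p = 7.09e-05) in liver. The heart call was lost without naked replicate 3, and the liver call without Damaraland liver replicate 4 or naked liver replicate 1. Guinea pig livers overlapped the naked mole-rat livers.

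Palb2 links Brca1 to Brca2, which loads the recombinase on broken ends. Palb2 (ENSMUSG00000044702) in heart was 9.57, 9.30 and 10.25 in naked mole-rat, 7.73, 7.42, 7.34, 7.59 and 7.67 in Damaraland, 6.87, 6.72 and 6.92 in guinea pig and 5.99, 5.96 and 6.37 in mouse. In liver it was 8.58, 8.75, 8.01 and 8.01, 7.31, 7.46, 7.36, 7.41 and 7.59, 6.07, 6.95 and 6.49 and 5.77 and 5.23. The species kept 1 order in both tissues, naked mole-rat, Damaraland, guinea pig, mouse, with no overlap between neighbours. Mean scaled reads fell along that order from 789 over 115 and 46.9 to 11.9 in heart and from 295 over 136 and 58.7 to 15.6 in liver. The average contrast was 2.16 (SE 0.14, adjusted p = 1.25e-09) in heart and 1.88 (SE 0.17, adjusted p = 3.12e-08) in liver. Damaraland over guinea pig was 0.71 (SE 0.19) in heart and 0.93 (SE 0.22) in liver, short of 1, so the gene was not called in both mole-rats. By voom on the recovered reads these differences were 1.25 and 1.33 in log2 and Palb2 was called in both mole-rats in both tissues.

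Brca1 and Brca2 did not follow Palb2 in liver. Brca1 in heart was 8.01, 8.20 and 8.47 in naked mole-rat, 7.01, 7.13, 7.18, 7.62 and 7.46 in Damaraland, 6.50, 6.66 and 6.75 in guinea pig and 6.11, 6.07 and 6.29 in mouse, the same order without overlap, with an average contrast of 1.36 (SE 0.12, adjusted p = 5.08e-08). In liver each species overlapped at least 1 other, no pair was called and the average contrast was 0.42 (SE 0.17). Brca2 was lowest in naked mole-rat heart, at 6.13, 6.32 and 6.22 against 6.82 to 7.59 in the other 3 species, and -1.03 (SE 0.20, adjusted p = 0.000318) from guinea pig. These 2 genes were named after their values were seen, as partners of Palb2.

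The Mre11a, Rad50 and Nbn proteins form the complex that holds broken ends. The 3 genes did not move together: in heart Rad50 was higher in naked mole-rat than mouse (1.19 (SE 0.17, adjusted p = 9.75e-06)), Mre11a was lower in Damaraland than guinea pig (-1.05 (SE 0.14, adjusted p = 9e-06)), and Nbn was not called in any pair of either tissue. Rad52, a recombination mediator, was called in 1 liver pair, Damaraland below mouse by 1.17 (SE 0.28, adjusted p = 0.00176).

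In end joining, 1 of 6 genes was called higher in mole-rat heart and 2 in liver, with 0 lower in each. Over all genes 10.8% were higher and 12.6% lower in heart, and 15.1% and 13.0% in liver. Median average contrasts of the route were 0.17 and 0.14. Xrcc6 and Xrcc5 encode the Ku pair that caps broken ends. Xrcc6 (ENSMUSG00000022471) in liver was 11.53, 11.80, 11.96 and 11.91 in naked mole-rat, 9.89, 9.63, 9.76, 9.64 and 9.67 in Damaraland, 9.78, 9.94 and 9.65 in guinea pig and 8.05 and 8.23 in mouse. Naked mole-rat livers were far above the rest, 3552 mean scaled reads against 805, 850 and 245, and mouse livers lowest. Naked minus Damaraland was 2.08 (SE 0.13, adjusted p = 2.33e-10). In heart the order of the mole-rats was the reverse, with 9.32, 8.83 and 9.34 in naked mole-rat, 10.20, 10.43, 10.47, 10.17 and 10.50 in Damaraland, 9.93, 10.40 and 10.16 in guinea pig and 8.67, 8.89 and 8.92 in mouse. Naked minus Damaraland was -1.19 (SE 0.16, adjusted p = 8.19e-06) there, and the naked mole-rat overlapped mouse. Xrcc5, which encodes the other Ku subunit, showed neither pattern. It was between 8.26 and 9.14 in all hearts, without a call, and in liver its only call was guinea pig below mouse by 1.11 (SE 0.22, adjusted p = 0.000283).

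Xrcc4, the partner of the ligase Lig4, was lower in naked than in Damaraland mole-rat in both tissues. Heart values were 7.17, 7.15 and 6.91 in naked mole-rat, 7.91, 8.08, 8.03, 8.19 and 8.32 in Damaraland, 7.99, 8.17 and 8.26 in guinea pig and 7.24, 7.53 and 7.30 in mouse. Liver values were 6.07, 6.24, 5.88 and 5.88, 7.09, 6.72, 7.00, 7.17 and 7.12, 7.06, 7.84 and 7.57 and 7.12 and 7.25. Each naked mole-rat library was below all libraries of the other species, and naked minus Damaraland was -1.03 (SE 0.14, adjusted p = 8.73e-06) in heart and -1.01 (SE 0.17, adjusted p = 4.27e-05) in liver. Both differences lay close to the size threshold. The heart call was lost without naked replicate 3 or Damaraland replicate 5, and the liver call in 8 of 23 settings, among them centring and leaving out any 1 of 5 mole-rat livers.

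Trp53bp1, which shields broken ends from resection, was higher in mole-rats in both tissues. In heart it was 11.03, 10.88 and 11.22 in naked mole-rat, 10.44, 10.41, 10.74, 10.54 and 10.73 in Damaraland, 9.80, 9.66 and 10.12 in guinea pig and 9.21, 9.56 and 9.18 in mouse. Its values in liver were 9.18, 8.92, 9.03 and 9.01, 8.59, 8.67, 8.64, 8.37 and 9.14, 7.43, 8.10 and 7.49 and 7.73 and 8.09. Mole-rats and outgroups did not overlap, and the average contrasts were 1.22 (SE 0.12, adjusted p = 1.22e-07) and 1.07 (SE 0.15, adjusted p = 5.04e-06). The liver value was 0.98 without mouse liver replicate 1, under the size threshold. Prkdc, the kinase that Ku recruits, was higher in naked than in Damaraland heart (1.33 (SE 0.24, adjusted p = 0.00013)) and not called in liver, and Lig4 was called once, naked below guinea pig heart by 1.10 (SE 0.16, adjusted p = 1.98e-05).

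Both crosslink repair genes measured were called higher in both mole-rats than in both outgroups, in both tissues. Over all genes 2.06% were called so in heart and 3.42% in liver. A result on 2 genes does not describe the route as a whole. Fancd2 and Fanci encode the pair of proteins that is clamped onto DNA at a crosslink when it is ubiquitinated. Fancd2 (ENSMUSG00000034023) in heart was 9.21, 9.27 and 9.84 in naked mole-rat, 9.50, 9.33, 9.36, 9.42 and 9.81 in Damaraland, 7.47, 7.74 and 7.81 in guinea pig and 6.15, 6.39 and 5.71 in mouse. In liver it was 8.69, 8.74, 8.52 and 8.56, 9.15, 9.03, 9.08, 8.98 and 8.92, 6.46, 7.23 and 6.73 and 4.90 and 5.87. The mole-rats were close to each other, guinea pig lay below both and mouse below guinea pig, without overlap. Mean scaled reads in heart were 627 and 642 in the mole-rats, 131 in guinea pig and 12.3 in mouse, and in liver 358, 486, 79.2 and 14.8. The average contrast was 2.58 (SE 0.14, adjusted p = 1.32e-10) in heart and 2.73 (SE 0.16, adjusted p = 1.23e-10) in liver, while naked minus Damaraland was -0.05 (SE 0.19, adjusted p = 0.836) and -0.41 (SE 0.19, adjusted p = 0.0617). Mouse was also called lower than guinea pig, by 1.59 (SE 0.21, adjusted p = 6.18e-06) in heart and 1.42 (SE 0.25, adjusted p = 0.000127) in liver, the latter not without mouse liver replicate 1.

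Fanci (ENSMUSG00000039187) in heart was 9.96, 9.76 and 9.96 in naked mole-rat, 8.89, 8.77, 8.87, 8.64 and 9.42 in Damaraland, 5.99, 6.01 and 5.56 in guinea pig and 5.97, 6.32 and 6.06 in mouse. Livers held Fanci at 9.61, 9.63, 9.76 and 9.22, 7.93, 7.50, 7.43, 7.18 and 7.50, 4.56, 4.29 and 4.67 and 5.57 and 5.20. Its outgroup values lay near those of a gene without reads. Guinea pig hearts held 12, 11 and 1 reads of Fanci and livers 1, 0 and 2, and mouse hearts held 11, 24 and 12 and livers 14 and 11. The mole-rats held 872 and 415 mean scaled reads in heart and 720 and 148 in liver. The average contrast was 3.42 (SE 0.13, adjusted p = 2.94e-12) in heart and 3.59 (SE 0.14, adjusted p = 1.45e-12) in liver, the largest of the 47 genes in each tissue. Fanci also differed between the mole-rats, by 0.97 (SE 0.18, adjusted p = 0.000155) in heart, just short of 1, and 2.05 (SE 0.17, adjusted p = 1.15e-08) in liver. How reads were assigned to matching genes across species is not given in the sources used here, and its part in the near absence of Fanci reads in guinea pig was not tested.

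**Figure D4:**
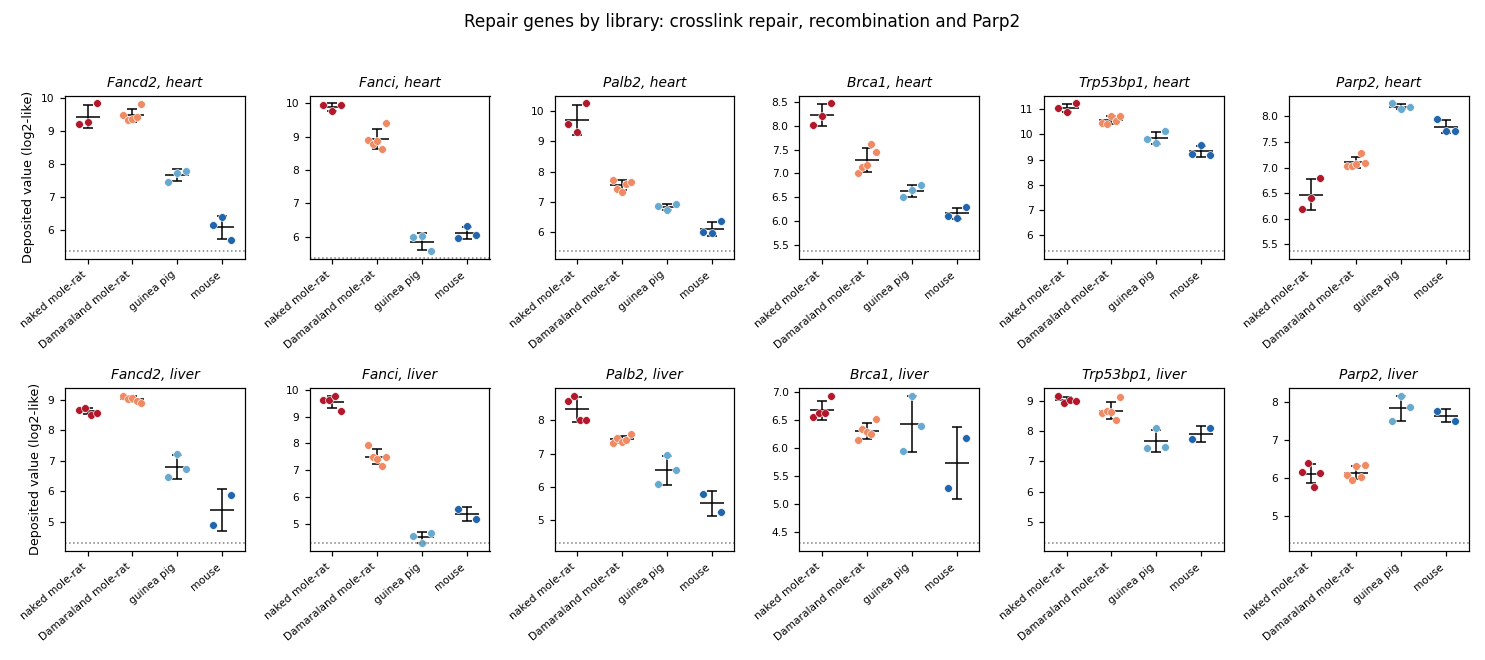
Deposited log2-like value of Fancd2, Fanci, Palb2, Brca1, Trp53bp1 and Parp2 in each library (points), with species mean and SD (bars), in heart (top) and liver (bottom); the dotted line is the value of a gene without reads. Mole-rat libraries lie above all outgroup libraries for Fancd2, Fanci, Palb2 and Trp53bp1 and below them for Parp2 in both tissues, and for Fanci the guinea pig libraries lie at or near the dotted line.

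Genes called against both outgroups in both mole-rats, which takes 4 contrasts, numbered 2 of 47 in heart, Fancd2 and Fanci, both higher (4.26% of the set, where 4.68% of all genes were called and 2.06% were called higher). In liver they numbered 4, Fancd2 and Fanci higher and Ercc5 and Parp2 lower (8.51%, where 6.29% of all genes were called, 3.42% higher and 2.87% lower). Fancd2 and Fanci held these calls in each setting in which they were tested, 22 in heart for each, and in liver 23 for Fancd2 and 22 for Fanci. A filter that asked for a mean above the lowest value plus 1 in each species removed Fancd2 and Fanci in heart and Fanci in liver, since an outgroup had too few reads. By voom the counts were 5 in heart, with Brca1, Palb2 and Parp2 added (background 8.37%), and 7 in liver, with Ercc1, Ercc8 and Palb2 added (background 8.96%). In heart and liver with the same sign there were 2, Fancd2 and Fanci, or 4.26% of the set against 1.28% of the 10109 genes tested in both tissues.

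Genes of the Fanconi pathway are known to be expressed more in dividing cells, and markers of dividing cells were set beside Fancd2 and Fanci. Of 18 such genes, 16 were in the tables, 9 were tested in heart and 11 in liver, and 2 were called higher in mole-rats in heart (Mcm2 and Mcm6) and 1 in liver (Mcm2), with 0 lower (22.2% and 9.09% of those tested, where the background was 23.4% and 28.1%). Their median average contrasts were -0.25 and -0.31. Summed scaled reads of the 16 ran from 2111 to 2845 in hearts of naked mole-rats, from 1314 to 1833 in Damaraland hearts, from 2216 to 2556 in guinea pig hearts and from 772 to 1303 in mouse hearts. Livers of naked mole-rats had 1608 to 2619, Damaraland livers 804 to 1559, guinea pig livers 1295 to 1966 and mouse livers 1037 to 1629. In the summed markers, most of whose reads were of Mcm genes, naked and Damaraland hearts lay above mouse hearts. Damaraland hearts lay below guinea pig hearts, and naked mole-rat hearts overlapped guinea pig hearts. By gene, Mcm2, Mcm3, Mcm5, Mcm6 and Mcm7 averaged more scaled reads in both mole-rat hearts than in mouse hearts. Mcm4, Top2a, Ccnb1, Ccnb2, Ccna2, Rrm2 and Tyms averaged fewer in both. Bub1, Aurkb, Plk1 and Birc5 averaged more than mouse in naked mole-rat hearts and fewer in Damaraland hearts. Against guinea pig hearts, Mcm2, Mcm3 and Mcm6 averaged more in both mole-rats. Bub1, Rrm2 and Tyms did so in the naked mole-rat only, the others in neither. In liver Mcm2, Mcm3, Mcm5 and Plk1 averaged more in both mole-rats than in mouse. Mcm6 and Mcm7 did so in the naked mole-rat only, the others in neither. Against guinea pig livers, Mcm2, Mcm3, Tyms and Bub1 averaged more in both. Mcm6 and Rrm2 did so in the naked mole-rat only, the others in neither. The part of these markers in the differences of Fancd2 and Fanci was not tested. Mcm2, a subunit of the replicative helicase, had an average contrast of 1.57 (SE 0.13, adjusted p = 1.71e-08) in heart and 1.27 (SE 0.20, adjusted p = 2.61e-05) in liver.

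Between the 2 mole-rats the share of repair genes called was not above that of all genes. In heart 7 were called higher in naked than in Damaraland mole-rat and 6 lower, or 27.7% of the set against 29.4% of all genes (14.2% higher and 15.2% lower). In liver 8 were higher and 5 lower, again 27.7%, against 34.2% (16.6% and 17.6%). With the same sign in both tissues were Atr, Lig1 and Neil1, higher in the naked mole-rat, and Lig3 and Xrcc4, lower. These 5 made 10.6% of the set, where 13.6% of genes tested in both tissues did so. Atm and Xrcc6 were called with opposite signs.

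Genes called in a single species against each of the other 3 were few. The naked mole-rat had 4 in heart (Atr, Atm, Palb2 and Pms2, all higher, 8.51% of the set against 9.02% of all genes, or 4.87% higher), of which Palb2 and Pms2 were left without naked heart replicate 3; Atr was also lost without guinea pig heart replicate 3. It had 6 in liver, Ddb2, Xrcc6, Neil1 and Fanci higher and Msh3 and Xrcc4 lower (12.8% against 10.3%, or 5.83% higher and 4.45% lower). The Damaraland mole-rat had Ercc1 and Lig3 in heart (4.26% against 6.76%, or 3.86% higher) and Atm in liver (2.13% against 8.81%, or 5.51% higher), all higher. Guinea pig had Msh6 in heart (2.13% against 6.61%, or 3.99% higher) and Mutyh, Xpc and Lig1 in liver (6.38% against 9.38%, or 5.1% higher), also higher.

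The repair genes called in mouse alone were all lower there. They were 4 in heart (Mpg, Fancd2, Apex1 and Lig1) and 4 in liver (Ercc1, Xrcc6, Mutyh and Fancd2), 8.51% of the set in each tissue. Among all genes 10.4% were called in mouse heart alone, 6.6% higher and 3.8% lower. For mouse liver the share was 12.2%, with 6.33% higher and 5.83% lower. At an adjusted p under 0.05 without the size threshold, 3 repair genes were higher and 16 lower in mouse heart than in each other species (14.5% and 11.7% of all genes), while mouse liver had 3 higher and 8 lower (12.5% and 12.5% of all genes). By voom there were 0 higher and 10 lower in heart (8.49% and 8.1% of all genes), and 0 higher and 5 lower in liver (7.49% and 8.68%). Mouse had the lowest of the 4 species means for 23 of 47 repair genes in heart and 23 in liver, or 48.9%, against 28.3% and 29.3% of all genes tested. It had the highest for 4 in heart and 8 in liver, or 8.51% and 17.0%, against 28.0% and 26.3%.

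The pairwise contrasts with mouse, which share the mouse libraries, gave the following counts. Naked mole-rat over mouse had 18 genes higher and 3 lower in heart, 44.7% of the set against 38.2% of all genes (18.0% higher and 20.2% lower). Liver had 15 higher and 5 lower, 42.6% against 41.2% (21.1% and 20.1%). Damaraland over mouse had 14 higher and 0 lower in heart, 29.8% against 34.9% (16.9% and 18.0%), while liver had 10 higher and 4 lower, 29.8% against 39.2% (20.9% and 18.4%). For guinea pig over mouse the numbers were 9 higher and 0 lower in heart, 19.1% against 32.1% (15.2% and 16.9%), and for liver 7 higher and 1 lower, 17.0% against 37.2% (18.8% and 18.4%). Against guinea pig, 14 repair genes differed in naked mole-rat heart, 8 of them higher (29.8% of the set against 33.0%), and 21 in liver, 11 of them higher (44.7% against 37.8%). Damaraland mole-rats had 12 such genes in heart, 7 of them higher (25.5% against 29.7%), and 15 in liver, 8 of them higher (31.9% against 36.2%). The age of the mice and their species cannot be told apart.

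**Figure D5:**
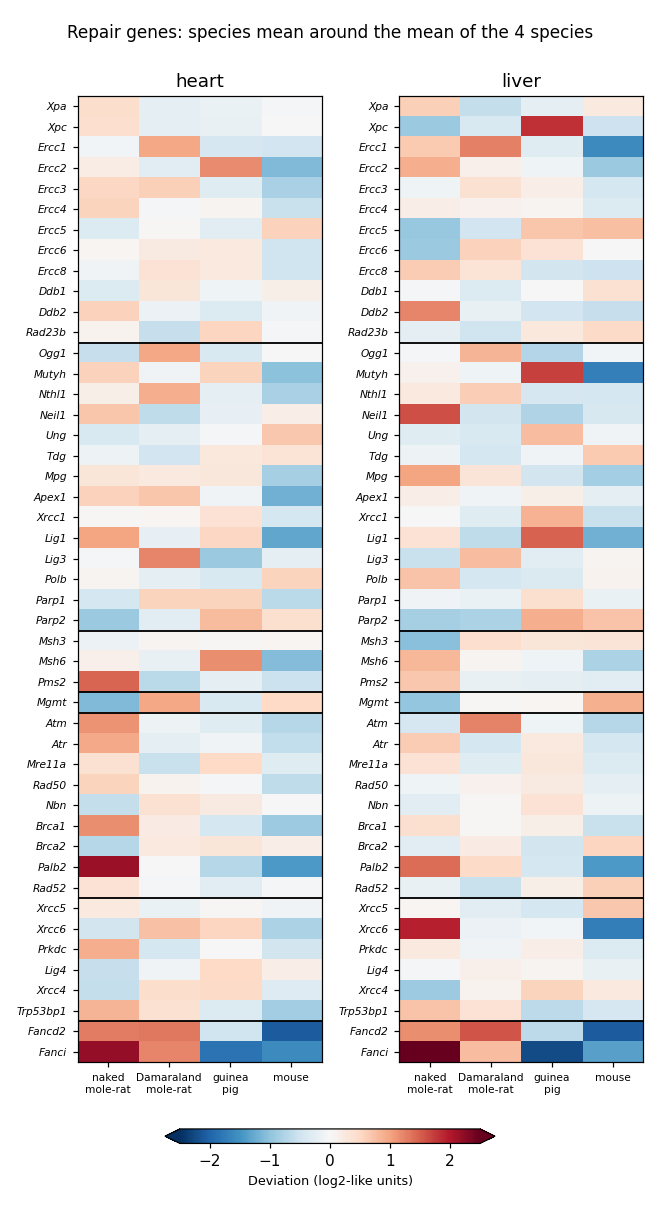
Species mean of each repair gene around the mean of the 4 species (log2-like units, red above and blue below, colour scale ending at 2.5 on each side), in heart (left) and liver (right), with lines between repair routes in the order nucleotide excision, base excision and single-strand break, mismatch, direct reversal, break signalling and recombination, end joining and crosslink repair. The mouse column is the lowest of the 4 for 23 genes in each tissue.

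With the same sign in both tissues, 5 genes were called in the average contrast, Fancd2, Fanci, Palb2 and Trp53bp1 higher and Parp2 lower. They made 10.6% of the set, and 10.1% of the genes tested in both tissues were called so. No gene was called in the naked mole-rat alone, the Damaraland mole-rat alone or guinea pig alone in both tissues with limma on the deposited values, where 2.92%, 2.15% and 1.8% of genes were, and 1, Fancd2, was called lower in mouse alone in both (background 3.19%). By voom, 6 were called in the naked mole-rat alone in both tissues, Ddb2, Fanci, Neil1, Palb2 and Pms2 higher and Mgmt lower (background 4.86%), and 1, Ogg1, in Damaraland alone (background 3.58%). At an adjusted p under 0.05 with no size threshold, the numbers were 6 for the naked mole-rat, 4 for Damaraland and 0 for guinea pig, against 8.93%, 6.74% and 6.48% of all genes.

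At the other end, Ddb1 and Nbn were called in no species pair in either tissue. In heart 14 genes had no called pair, 29.8% of the set against 28.0% of all genes, and their largest difference between species means was 0.95. In liver it was also 14, 29.8% against 23.6%, with a largest difference of 0.99, and 12 of those differed from the heart list. A difference under the threshold does not show that levels were equal.

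Further genes of the same routes, 90 by a list chosen with earlier results of these data known, gave 80 genes in the tables, 75 tested in heart and 76 in liver. Heart had 10 of them called higher and 5 lower in the average contrast (median 0.22), 20.0% of those tested against 23.4% of all genes. The liver counts were 15 higher and 7 lower (median 0.30), 28.9% against 28.1%, so both shares were near the background. Against both outgroups, the mole-rats had 1 called higher and 3 lower in heart (5.33% against 4.68% of all genes), with 2 higher and 1 lower in liver (3.95% against 6.29%). Among those called in both mole-rats in both tissues was Polk, a polymerase that copies past damaged bases. Polk averaged 433 scaled reads in naked mole-rat hearts and 553 in Damaraland hearts, against 39.0 in guinea pig and 105 in mouse, an average contrast of 2.06 (SE 0.09, adjusted p = 1.59e-11), and 1.55 (SE 0.14, adjusted p = 2.22e-08) in liver. Of the other crosslink repair genes, 2 of 14 tested were called higher in heart and 0 lower in the average contrast, 14.3% against 23.4% of all genes. Of 15 tested in liver 4 were called higher and 1 lower, 33.3% against 28.1%. In both mole-rats against both outgroups, 1 of these 14 was called in heart (7.14% against 4.68%) and 1 of 15 in liver (6.67% against 6.29%).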

How the data were processed

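Total RNA depleted of ribosomal RNA was sequenced from heart and liver. Per the submitters' processing notes, reads were handled with cutadapt, Salmon 013.1 and DESeq2, with the build GRCm38 listed; strand, gene annotation and the matching of genes across species are not given in the sources used here. The authors deposited variance-stabilised log2-like values, 1 table per tissue, normalised separately, with 13928 mouse gene identifiers (a symbol was found for 13921); 26 columns that belong to no sample of this series were not used.

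Inverting the transform gave whole reads for 100% of values (relative tolerance 0.0001), which gave each library's depth. Values were fitted per tissue with limma 3.58.1 in R 4.3.3 (Python 3.11.15 and pandas 2.3.3 for tables), 1 coefficient per species, a variance trend and Benjamini-Hochberg adjustment over genes with a mean at least 1 above the lowest value; all 47 repair genes passed. The script was tested on simulated data. Alternatives were no size threshold, other filters, centring, quantile normalisation, voom on the recovered reads, a robust fit, the replicate number as a block and the omission of each library in turn. The members and lists were chosen with earlier results of these data known. Genes given in every library (24) were those shifted in both mole-rats or in 1 species alone, the 3 largest called average contrasts in each direction, the largest of each repair route, and those with under 10 mean scaled reads in 1 species and over 100 in another; other members are given by ranges or named after their values were seen. Values of 1 gene outside the set are not reported here.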

Additional observations from a re-analysis of the deposited data

Results flagged for a closer look

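In 3 of 72 groups of 4 or 5 libraries tested, 1 library stood far from the others; chance alone gives about 1 in 20. Lig3 in Damaraland heart replicate 4 was 11.32 (2607 reads), where the others lay between 10.65 and 10.82. Parp2 in the same library was 7.29 (89 reads), against 7.03 to 7.08. Ddb2 in Damaraland liver replicate 3 was 6.18 (54 reads), against 6.42 to 6.48.

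For 15 genes a pair of species did not overlap in either tissue and stood in opposite order in heart and liver, 31.9% of the set against 35.7% of the 10109 genes tested in both tissues. The difference between tissues was not tested, and the following are heart and then liver differences in log2-like units. Naked minus Damaraland mole-rat was 1.25 and -1.67 for Atm, and -1.19 and 2.08 for Xrcc6. Naked mole-rat minus guinea pig was -1.0 and 2.01 for Xrcc6, 0.63 and -2.75 for Xpc, -0.99 and 1.01 for Ercc2, 0.48 and -1.10 for Lig1, -1.05 and 0.93 for Msh6, and 0.57 and -0.33 for Rad50. Naked mole-rat minus mouse was 0.54 and -0.92 for Ercc6, -0.47 and 0.62 for Polb, 0.41 and -0.79 for Rad52, and 0.33 and -0.62 for Xrcc5. Damaraland mole-rat minus guinea pig was 0.41 and -0.36 for Ddb1. Damaraland minus mouse was 0.46 and -0.85 for Mgmt, and -0.27 and 0.31 for Lig4. Guinea pig minus mouse was -0.71 and 0.85 for Ung. Of these 16 pairs, Atm and both of Xrcc6 were called in both tissues. The opposite calls of Xrcc6 against guinea pig, with a heart difference at the size threshold, were lost with libraries centred on their medians. The heart call of Atm was lost without naked replicate 3.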

How the results depend on the processing

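The shared calls of Fancd2 and Fanci and the liver calls of Ercc5 and Parp2 held in each alternative in which the gene was tested. The filter in each species removed Fancd2 and Fanci in heart and Fanci in liver, where an outgroup had too few reads, so it could not test those calls. All alternatives used the same libraries and are not independent tests. Counts of called genes moved without the size threshold, with the filter in each species and with voom, which changes both the scale of the values and the variance model. Without a size threshold the counts of 47 genes were 29 in heart and 30 in liver in the average contrast, 9 and 11 in both mole-rats, 33 and 26 for naked against Damaraland, 20 and 15 for the naked mole-rat alone, 7 and 5 for Damaraland alone, 5 and 8 for guinea pig alone and 19 and 11 for mouse alone. Apart from mouse alone, these counts are given without the share of all genes in each tissue. They do not show whether the set stood above the background. For mouse alone, 14.5% of all genes were higher and 11.7% lower in heart, and 12.5% and 12.5% in liver. Calls over all genes rose as well. In the average contrast 38.5% of genes were called with the same sign in both tissues, against 10.1% with the threshold. With voom on the recovered reads they were, in heart, 5 for both mole-rats, 24 for naked against Damaraland, 12, 5, 2 and 10 for naked, Damaraland, guinea pig and mouse alone. In liver voom gave 21 in the average contrast (44.7% against 37.3%) and 7 in both mole-rats (14.9% against 8.96%). It gave 10 for naked alone (21.3% against 13.8%), 2 for Damaraland alone (4.26% against 12.1%) and 6 for guinea pig alone (12.8% against 12.6%). A filter in each species left 39 genes tested in heart. Fewer were then called there in the average contrast, and 0 in both mole-rats, since the filter removed Fancd2 and Fanci. With the same sign in both tissues, the average contrast gave 17 without a size threshold (36.2% of the set against 38.5% of all genes), 2 with the filter in each species (5.13% against 7.75%) and 8 with voom (17.0% against 16.7%). In both mole-rats the counts were 6 (12.8% against 4.74%), 0 (against 0.972%) and 4 (8.51% against 2.46%), and in mouse alone 6 (12.8% against 9.59%), 0 (against 2.7%) and 3 (6.38% against 5.15%). The naked mole-rat alone gave 6 without a size threshold (12.8% against 8.93%), 6 with voom (12.8% against 4.86%) and 1 with the replicate block (2.13% against 2.99%), and Damaraland alone 4 without a size threshold (8.51% against 6.74%) and 1 with voom (2.13% against 3.58%).

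Same replicate numbers mark animals of different species and do not pair them. Deviations of same-numbered libraries correlated between -0.26 and 0.30 in heart and between -0.23 and 0.15 in liver. For differently numbered libraries of different species the ranges were -0.23 to 0.23 and -0.28 to 0.33. A fit with the replicate number as a block left Fancd2 and Fanci as the 2 genes called in both mole-rats in both tissues. Leaving out each library gave ranges, heart first, of 10 to 12 and 11 to 14 in the average contrast, 2 to 2 and 4 to 5 in both mole-rats, 10 to 15 and 11 to 14 for naked against Damaraland, 2 to 6 and 5 to 7 for the naked mole-rat alone, 1 to 3 and 1 to 1 for Damaraland alone, 0 to 1 and 3 to 4 for guinea pig alone, and 3 to 5 and 4 to 6 for mouse alone. The 2 average contrasts near 0 changed sign. Neil1 in heart was -0.05 with voom, -0.02 with the replicate block and 0.00 to 0.16 with a library left out. Mutyh in liver was -0.09 with quantile normalisation, -0.16 with the block and -0.09 to 0.08 with a library left out. By voom it was 1.27 in log2 (SE 0.48, limma adjusted p = 0.0271) and was called higher in mole-rats. The cause was not tested. Leaving out a mouse liver leaves 1 mouse library, which is then assumed to vary like the other groups. Depth limits the genes with few outgroup reads, above all Fanci in guinea pig, Mutyh in mouse liver and Fancd2 in mouse, whose differences the deposited scale compresses.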
